A study of Drosophila melanogaster with 16 samples.

Results

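The miRNAs described here are 8 regulators of growth and metabolism in *Drosophila*: bantam, miR-8, miR-14, miR-278, miR-33, miR-275, miR-305 and miR-375. They were taken by name from the table of 19 to 25 nt reads, which lists 209 miRNAs, and of each hairpin the arm with more reads over the 16 libraries was kept. The kept arms were bantam-3p, miR-8-3p, miR-14-3p, miR-278-3p, miR-33-5p, miR-275-3p, miR-305-5p and miR-375-3p. The rule uses names and total reads, and no difference between groups.

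A miRNA is cut from a hairpin precursor, loaded into an Argonaute protein and represses mRNAs that pair with its seed. In *Drosophila*, insulin-like peptides act through the insulin receptor and Akt to keep the transcription factor dFOXO out of the nucleus, and several of these miRNAs act on growth, fat storage or insulin signalling. bantam promotes tissue growth and blocks cell death through the gene *hid*, miR-8 acts in the fat body to promote growth through *u-shaped*, miR-14 affects fat storage and acts in the insulin-producing cells through *sugarbabe*, and miR-278 affects energy balance through *expanded*. miR-33 lies in an intron of the lipid regulator gene *SREBP*, mir-275 and mir-305 form a cluster, and in mammals miR-375 restrains insulin secretion.

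Small RNA was sequenced from whole flies of the wDah strain, called wildtype, and of dFOXO-null flies, which carry the foxo deletion allele delta 94 in the wDah background. Males and females of each genotype were sampled young, at 5 days in replicate 1 and 6 days in replicate 2, or old, at 31 days, which gave 8 conditions with 2 libraries each. Each library came from 40 pooled whole flies of 1 sex, which had been kept with flies of the other sex at 25 °C, so no tissue is resolved. The allele is a deletion present in every cell throughout life, and the 2 replicates are the only measure of spread within a condition.

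The libraries held 596871 to 15259153 mapped reads with a median of 4149951, without spike-ins. Replicate 1 was sequenced more deeply, with a median of 8490113 reads against 1576558 in replicate 2. The 8 miRNAs made up 11.6% to 30.2% of the mapped reads of a library, and each had at least 910 reads in each library. miRNAs of all kinds took 98.2% to 99.6% of mapped reads in males and 76.5% to 90.4% in females, the remainder being reads of transposons and 1 virus. The 2 libraries of old wildtype females stood apart, since 7 of the 8 miRNAs differed between them by more than 2-fold, against 0 to 4 of 8 in the other conditions. Markers of the sexes followed the labels: 3 ovary miRNAs summed to 1.27% to 4.77% of reads in females and 0.0106% to 0.154% in males, and the 7 testis miRNAs in the table, of 11 listed, summed to 0.0328% to 0.0793% in males and 0.00212% to 0.0116% in females.

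On build BDGP6, the assembly also called dm6, mir-ban lies at chr3L:642208-642288 and mir-33 at chr3L:19797961-19798059, the latter inside an intron of *SREBP*. mir-375 lies at chr2L:857542-857632, mir-275 at chr2L:7425795-7425892 and mir-305 at chr2L:7425972-7426044, with 79 bases between the last pair. mir-14 lies at chr2R:9553762-9553824, mir-278 at chr2R:15657066-15657163 and mir-8 at chr2R:16831432-16831518. All 8 hairpins are on the plus strand. In the annotation mir-278 falls in an exon of the protein-coding gene *CG42524*, mir-ban, mir-14, mir-275, mir-8 and mir-375 fall in exons of annotated long non-coding RNAs, and mir-305 overlaps no other named gene.

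The abundance of the 8 miRNAs, as a percent of all mapped reads, spanned a wide range. bantam-3p was the most abundant with a mean of 8.56% ± 2.65 (SD, n = 16), and it ranked 4 among the 209 miRNAs by mean. miR-8-3p followed with 3.94% ± 1.26, miR-14-3p with 2.36% ± 3.21, miR-278-3p with 1.45% ± 1.16 and miR-375-3p with 0.758% ± 0.284. The least abundant were miR-33-5p with 0.332% ± 0.211, miR-275-3p with 0.318% ± 0.235 and miR-305-5p with 0.214% ± 0.135. bantam-3p exceeded miR-8-3p in 16 of 16 libraries, but most neighbours in this order were not separated: miR-14-3p exceeded miR-278-3p in 8 of 16 libraries, miR-33-5p exceeded miR-275-3p in 9 and miR-275-3p exceeded miR-305-5p in 9. These are read shares of mature strands of like length, and ligation during library construction can favour some strands over others. Within 1 miRNA, the highest library exceeded the lowest by 2.75-fold for miR-8-3p and 2.92-fold for bantam-3p, and by 64.4-fold for miR-14-3p. Replicate 2 was higher than replicate 1 in all 8 conditions for miR-14-3p, by a median of 4.79-fold, for miR-275-3p, by 2.34-fold, and for miR-33-5p, by 1.48-fold.

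**Figure D1:**
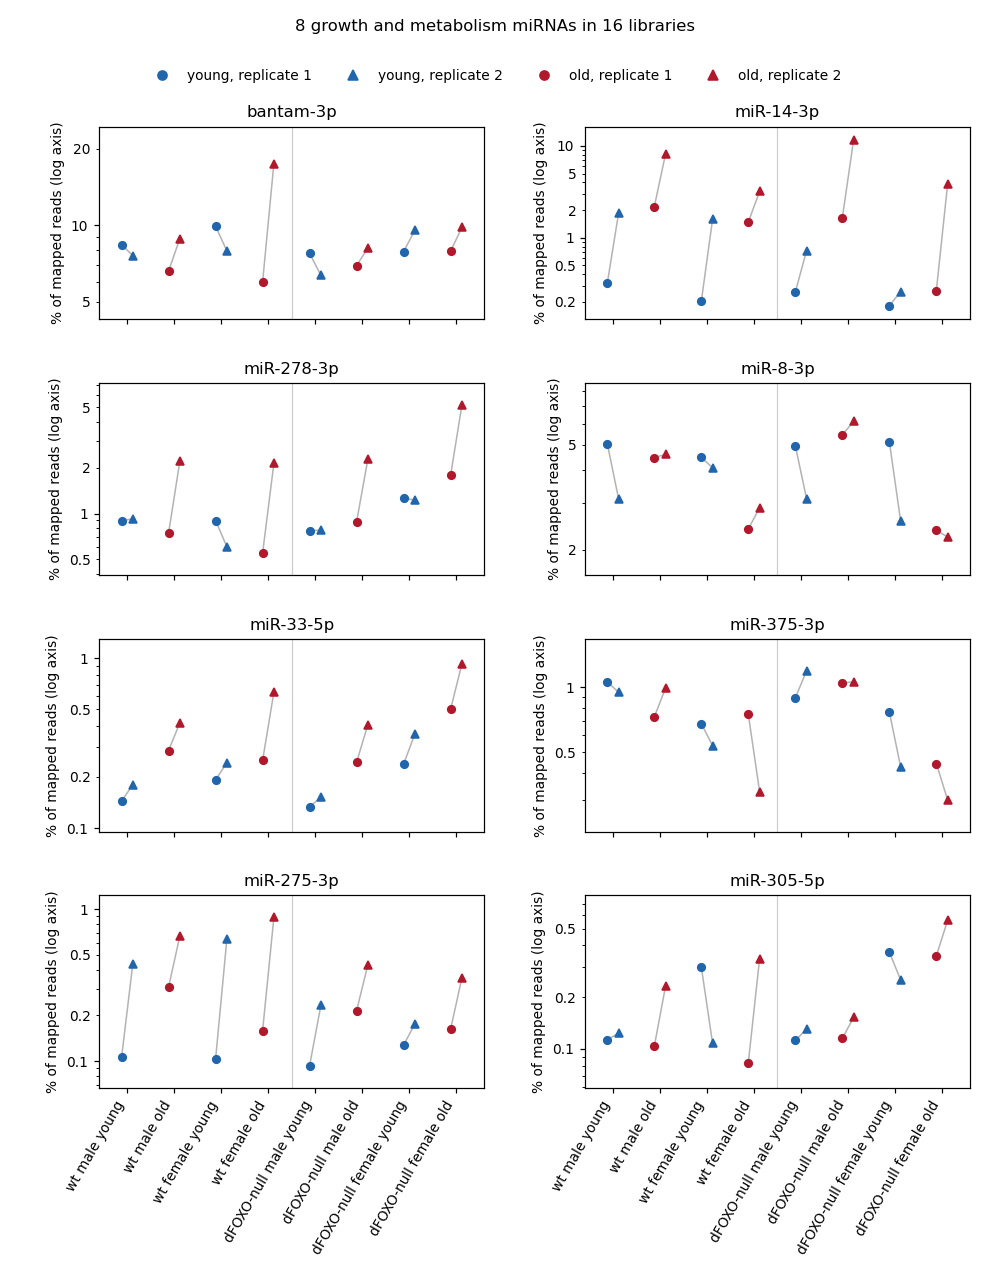
Percent of mapped reads (log axis, a separate range in each panel) of the 8 miRNAs in each of the 16 libraries, with the 2 replicates of a condition joined by a line. Red points are old flies and blue points young flies. For miR-14-3p replicate 2 lies above replicate 1 in all 8 conditions, and the values run from 0.181% to 11.6%.

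Aging was compared first, as old against young averaged over the 4 classes of sex and genotype. Under scaling by mapped reads, miR-14-3p, which limits fat storage, and miR-33-5p, whose host gene controls lipid synthesis, rose with age. Both were then higher in the old library of all 8 pairs of the same genotype, sex and replicate, whereas with spike-in reads as library size both age effects turned negative. By edgeR's quasi-likelihood test with Benjamini-Hochberg adjustment over the 330 miRNAs and transposons tested, 2 of the 8 miRNAs were called, both upward, against a background of 10.6% of all features, 7.88% in the upward direction, and 15.4% of the 208 miRNAs tested. The other members had no call. Since fewer reads of a miRNA can come from fewer cells that make it or from less of it per cell, these cannot be told apart in whole flies. The median of all features was itself 0.55 higher in old flies on the log2 scale and that of the members 0.54, so effects are also given relative to the former. Over the same libraries, the muscle miRNAs miR-1-3p and miR-133-3p summed to 8.34% to 21.8% of reads in young flies and 1.30% to 11.2% in old flies. The nervous system miRNA miR-124-3p had a median of 0.00446% in young flies (0.00334% to 0.00892%) and 0.0167% in old flies (0.00127% to 0.0440%). The ovary miRNAs summed to 3.84% to 4.77% in young and 1.27% to 2.74% in old females, and the testis miRNAs to 0.0531% to 0.0793% in young and 0.0328% to 0.0507% in old males. Their part in the effects of age was not tested.

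miR-14-3p had the largest age effect of the 8 under scaling by mapped reads, and the smallest with spike-in reads. In wildtype males its level was 0.318% and 1.84% in the young libraries and 2.17% and 8.21% in the old ones. In wildtype females the young libraries had 0.201% and 1.59% and the old ones 1.48% and 3.19%. In both classes of wildtype flies each old library thus exceeded the young library of its own replicate. dFOXO-null males had 0.255% and 0.721% when young and 1.64% and 11.6% when old. dFOXO-null females had 0.181% and 0.258% when young and 0.265% and 3.84% when old. In males of both genotypes and, by a small margin, in dFOXO-null females both old libraries lay above both young ones, whereas in wildtype females the ages overlapped. The same held for 52.1% of all features in wildtype males, 34.8% in dFOXO-null males and 18.2% in dFOXO-null females. The log2 fold change was 2.66 (SE 0.66, edgeR adjusted p = 0.0258), or 2.11 above the median of all features. The mean log2 ratio of old to young was 2.22 over the 4 pairs of replicate 1 and 2.77 over those of replicate 2. In this fit, which has no block for replicate number, the call was lost, with 1.92 to 2.90 and adjusted p of 0.058 to 0.0942, on leaving out any of 9 libraries: replicate 1 of the young flies in each of the 4 classes, replicate 2 of young dFOXO-null males and females, and replicate 2 of old dFOXO-null females, dFOXO-null males and wildtype males. With all libraries and such a block, alone or nested in genotype, the call was kept. Scaled by spike-in reads, of which each library had only 91 to 1970, the effect was -0.39 (adjusted p = 0.673).

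miR-33-5p was at 0.133%, 0.186% and 0.359% of reads (lowest, median and highest of 8 young libraries) and at 0.244%, 0.412% and 0.928% in the old libraries. The 2 ranges overlapped, but each old library exceeded its young partner, by 1.30-fold to 2.68-fold. Its log2 fold change was 1.15 (SE 0.28, edgeR adjusted p = 0.0252), 0.60 above the median of all features. That call was scale-dependent: with TMM scaling factors the value was 0.58 (adjusted p = 0.138), with DESeq2 0.47 (adjusted p = 0.0749), and with spike-in reads it turned to -1.80 (adjusted p = 0.0447). It was also lost in the unblocked fit, at 1.02 to 1.17 and adjusted p of 0.0577 to 0.0858, on leaving out any of 8 libraries, namely replicate 1 of young flies in each class, replicate 2 of young dFOXO-null males, and replicate 2 of old wildtype males, dFOXO-null males and dFOXO-null females. With all libraries and a replicate block, alone or nested in genotype, the call was kept. The minor arm miR-33-3p, at under 0.006% of reads in each library, had a log2 fold change of 1.52 (SE 0.37, edgeR adjusted p = 0.0252).

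miR-275-3p, which shares its cluster with miR-305, was also higher in the old library of all 8 pairs, as were 6.06% of all features and 9.62% of miRNAs. Its young libraries ran from 0.0934% over a median of 0.152% to 0.633%, and its old libraries from 0.158% over 0.330% to 0.880%, so the groups overlapped widely while each pair kept the same order. Without a block the log2 fold change was 0.77 (SE 0.48, edgeR adjusted p = 0.221). Young and old flies of a genotype and replicate were brothers and sisters, and in a fit blocked by replicate number the value was 0.81 (adjusted p = 0.0486), or 0.84 (adjusted p = 0.0395) with the number nested in genotype. Without replicate 2 of old wildtype females, the value in the unblocked test was 0.34 (adjusted p = 0.608). The clustered miR-305-5p, which ran from 0.108% to 0.365% in young and from 0.0831% to 0.559% in old flies, had a log2 fold change of 0.31 (SE 0.34, adjusted p = 0.485).

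miR-278-3p, needed for normal insulin responsiveness in flies, had 0.604%, 0.897% and 1.26% in young libraries (lowest, median, highest) and 0.547%, 1.97% and 5.20% in old ones. Its log2 fold change of 1.02 (SE 0.36) did not pass the threshold (edgeR adjusted p = 0.0795). The replicates differed here. Over replicate 2 the old library was higher in 4 of 4 pairs with a mean log2 ratio of 1.68, and over replicate 1 in 2 of 4 pairs with a mean of -0.07. Without replicate 1 of old wildtype females the value was 1.18 (adjusted p = 0.0199), without replicate 1 of old dFOXO-null males 1.15 (adjusted p = 0.0299) and without replicate 1 of old dFOXO-null females 1.16 (adjusted p = 0.0494).

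The growth regulators bantam-3p and miR-8-3p and the secretion-linked miR-375-3p had small age effects with no call. bantam-3p ran from 6.35% to 9.91% in young and from 5.97% to 17.5% in old flies, where the extremes are the 2 libraries of old wildtype females, and its log2 fold change was 0.12 (SE 0.23). miR-8-3p had -0.19 (SE 0.22) and miR-375-3p -0.27 (SE 0.25), with edgeR adjusted p of 0.503 and 0.419. Each of the 3 was higher with age in some pairs and lower in others, and the value of bantam-3p turned negative with TMM scaling (-0.44, adjusted p = 0.412) and with DESeq2, which called it (-0.55, adjusted p = 0.0484). For miR-8-3p the ratio of old to young ran from 0.46 to 0.87 in female pairs and from 0.89 to 1.97 in male pairs, but its age by sex effect was not called.

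**Figure D2:**
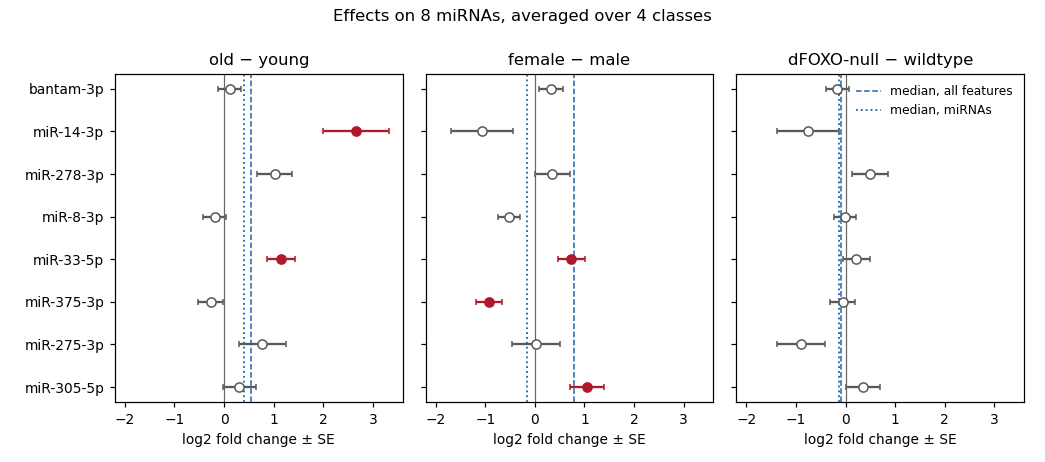
Log2 fold change ± SE of the 8 miRNAs for age, sex and dFOXO loss, each averaged over 4 classes, from the edgeR fit of 16 libraries. Filled red points have an adjusted p under 0.05, and dashed and dotted lines mark the medians of all 330 features and of the 208 miRNAs. miR-14-3p and miR-33-5p are called for age and miR-33-5p, miR-375-3p and miR-305-5p for sex, where miR-33-5p and miR-305-5p turn negative with TMM or DESeq2 scaling, and the age effects turn negative with spike-in reads. No point is called for dFOXO loss.

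**Figure D3:**
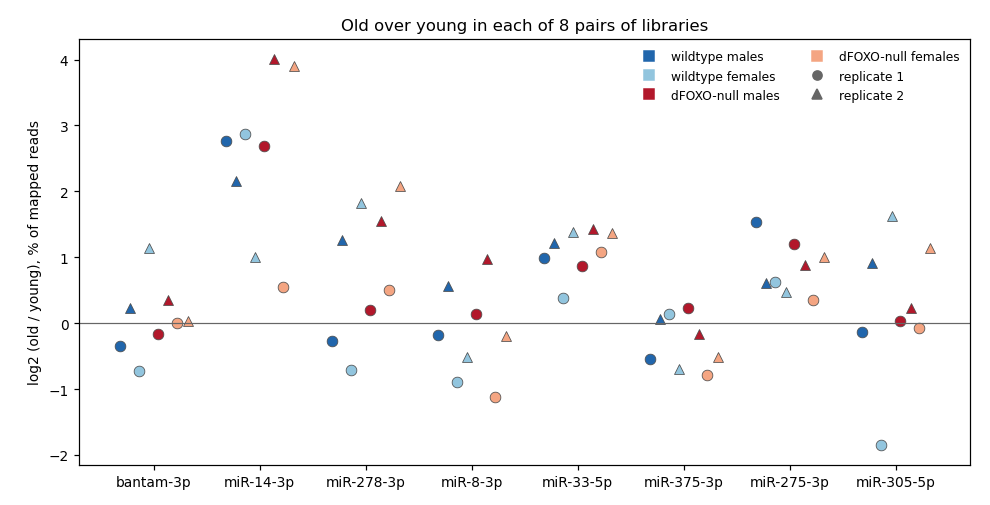
Log2 ratio of old to young percent of mapped reads in each of the 8 pairs of libraries of the same genotype, sex and replicate. Circles are replicate 1, triangles replicate 2 and colours the 4 classes. All 8 ratios are above 0 for miR-14-3p, miR-33-5p and miR-275-3p, and for miR-278-3p each triangle lies above the circle of its class. Scaled by spike-in reads, the averaged age effects turn negative.

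Within each class, aging was tested with the same fit, in which no feature was called in any of the 4 classes (0% of 330), and none of the members. At an unadjusted p under 0.05 the members counted 0 in wildtype males, 0 in wildtype females, 1 in dFOXO-null males and 2 in dFOXO-null females, against 10%, 8.48%, 17.6% and 8.79% of all features. DESeq2 called 0 members in each, and 3, 2, 0 and 7 of all 330 features in the same order. For miR-14-3p the log2 fold changes were 2.27 (SE 1.30) in wildtype males, 1.38 (SE 1.26) in wildtype females, 3.77 (SE 1.39) in dFOXO-null males and 3.23 (SE 1.35) in dFOXO-null females, with edgeR adjusted p of 0.461, 0.818, 0.243 and 0.42. An edgeR fit of only the 4 libraries compared, 2 per age, called miR-14-3p in dFOXO-null males and dFOXO-null females, where the joint fit did not. The replicates lay far apart there: the old libraries differed 7.08-fold in dFOXO-null males and 14.5-fold in dFOXO-null females. The share of all features that these fits called was not recorded. Without replicate 1 of old dFOXO-null males the joint fit gave 4.58 in dFOXO-null males. Single libraries moved these values widely: without replicate 2 of the old flies the age effect of miR-14-3p was 1.01 in wildtype males, 0.73 in wildtype females, 1.75 in dFOXO-null males and 0.27 in dFOXO-null females, and over the 4 libraries left out in turn it ran from 1.01 to 4.03, 0.56 to 3.53, 1.75 to 4.70 and 0.27 to 4.13 in the same order. miR-33-5p had 1.26 (SE 0.56, adjusted p = 0.481) in dFOXO-null females. miR-278-3p had 0.70, 0.84, 1.04 and 1.49 in the same order of classes, and miR-375-3p had -0.22, -0.17, 0.01 and -0.68. The larger point values of miR-14-3p in dFOXO-null flies were not shown to differ from wildtype. The difference in age effect between genotypes was 1.5 (SE 1.77) in males and 1.84 (SE 1.77) in females, both with an adjusted p of 1 in edgeR.

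Under scaling by mapped reads more features were called for sex than for age or genotype, an order that spike-in reads reversed for age (284 features) and sex (168 features). miR-375-3p was lower in females, and miR-305-5p and miR-33-5p were higher in females under the scaling by mapped reads but turned negative with TMM or DESeq2. These were 3 called members of 8, against 63.3% of all 330 features (48.2% higher and 15.2% lower in females) and 45.2% of the 208 miRNAs. The directions depended on scaling. Transposons took a larger share of female reads, and the median of all features was 0.78 higher in females on the log2 scale and that of the miRNAs -0.16. With TMM the median of all features became -0.49 and with DESeq2 -0.55, so a direction given for 1 scaling need not hold for another.

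miR-375-3p had 0.727%, 1.02% and 1.19% in males (lowest, median, highest of 8) and 0.301%, 0.490% and 0.767% in females. The 2 ranges overlapped only between 0.727% and 0.767%, and the female library was lower in 7 of 8 pairs. The log2 fold change was -0.92 (SE 0.25, edgeR adjusted p = 0.0053). It stayed below 0 and called under TMM (-2.04), DESeq2 (-2.10), miRNA reads as library size (-0.70), the block, and without any 1 of the 16 libraries (-1.10 to -0.80). With spike-in reads it was 0.31 (adjusted p = 0.786).

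miR-305-5p, linked in flies to nutrient-dependent renewal of gut stem cells, had 0.104%, 0.119% and 0.232% in males and 0.0831%, 0.317% and 0.559% in females. The female library was higher in 6 of 8 pairs. The log2 fold change was 1.05 (SE 0.34, edgeR adjusted p = 0.015), which is 0.27 above the median of all features and 1.21 above that of miRNAs, and it turned to -0.18 with TMM and -0.32 with DESeq2. Without replicate 2 of old wildtype females it was 0.72 (adjusted p = 0.0507) and without replicate 1 of young wildtype females 0.82 (adjusted p = 0.055). miR-33-5p had 0.133%, 0.212% and 0.416% in males and 0.192%, 0.304% and 0.928% in females, with a log2 fold change of 0.74 (SE 0.28, edgeR adjusted p = 0.0307). Relative to the median of all features it was -0.04, and it was 0.90 above that of miRNAs. It turned to -0.49 with TMM and -0.60 with DESeq2, and the call was lost, at 0.53 to 0.71, on leaving out any of 8 libraries: replicate 1 of wildtype and dFOXO-null males at either age, and replicate 2 of wildtype and dFOXO-null females at either age.

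miR-8-3p and miR-14-3p had lower values in females but no call. miR-8-3p, which supports growth from the fat body, had 3.11%, 4.77% and 6.14% in males and 2.23%, 2.72% and 5.13% in females, and its log2 fold change was -0.53 (SE 0.22, edgeR adjusted p = 0.0521). miR-14-3p was lower in the female library of all 8 pairs, as were 13.3% of all features and 21.2% of miRNAs, with a log2 fold change of -1.07 (SE 0.63, adjusted p = 0.152). Deviations of the libraries with the same replicate number ran together between the sexes, and with the number as a block miR-8-3p had -0.53 (adjusted p = 0.0336) and miR-14-3p -1.0 (adjusted p = 0.0105), which made 5 called members in place of 3. Leaving out 1 library also brought calls: miR-8-3p was called without replicate 1 of young dFOXO-null females (-0.67), replicate 2 of young dFOXO-null males (-0.60), replicate 2 of old wildtype females (-0.56) or replicate 2 of young wildtype males (-0.60), and miR-14-3p without replicate 2 of old dFOXO-null females (-1.81, adjusted p = 0.0207). The minor arm miR-8-5p was lower in females by the unblocked test, with -1.57 (SE 0.36, adjusted p = 0.00122). For bantam-3p, miR-278-3p and miR-275-3p the values were 0.32 (SE 0.23), 0.35 (SE 0.36) and 0.03 (SE 0.48), with no call, and each was negative and called with TMM and DESeq2. Without replicate 1 of old wildtype females bantam-3p was called, at 0.47 (adjusted p = 0.0241).

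By age and genotype, edgeR called 3 of 8 members for sex in old dFOXO-null flies. This share was below the 50.9% of all features called there, or 55.8% at an unadjusted p under 0.05. miR-375-3p was at 1.04% and 1.06% in the male libraries and 0.444% and 0.301% in the female ones. miR-8-3p was at 5.44% and 6.14% in males and 2.37% and 2.23% in females, and miR-305-5p at 0.115% and 0.152% in males and 0.348% and 0.559% in females. The replicates of the sexes did not overlap for any of the 3, as was so for 47.3% of all features higher and 22.4% lower in females. The log2 fold changes were -1.50 (SE 0.52), -1.33 (SE 0.45) and 1.76 (SE 0.70) with edgeR adjusted p of 0.0258, 0.024 and 0.0482. All 3 calls were lost when p-values were adjusted over miRNAs alone, at 0.0554, 0.0525 and 0.0896, and when only the 4 libraries were fitted, at 0.13, 0.0675 and 0.128. They were also lost for miR-8-3p and miR-305-5p on leaving out any 1 of the 4 libraries, at -1.42 to -1.24 and 1.38 to 2.06, and for miR-375-3p without replicate 2 of old dFOXO-null females (-1.24) or replicate 1 of old dFOXO-null males (-1.51). With the replicate block 5 members were called there, with TMM 2 and with spike-in reads 0. Of all 330 features these called 187, 193 and 137 in the same order. In young wildtype, young dFOXO-null and old wildtype flies edgeR called 0 of 8 members, and 0 had an unadjusted p under 0.05, whereas DESeq2 called 5, 4 and 6. The edgeR backgrounds there were 50%, 46.4% and 49.4% of all features by adjusted p and 53%, 49.7% and 51.5% by unadjusted p. DESeq2 called 236, 218 and 226 of all 330 features in the same order. The sex effect was not shown to depend on genotype, as no member was called for sex by genotype. For age by sex, miR-8-3p had -1.06 (SE 0.45, unadjusted p = 0.0331, edgeR adjusted p = 0.436). edgeR called no feature in any of the 4 tests of a difference of effects (0% of 330). DESeq2 called 0 members in each, and of all 330 features 7 for sex by genotype and 3 for age by genotype in females. That value of miR-8-3p was the only 1 of the members with an edgeR unadjusted p under 0.05. The shares of all features were 9.39% for age by sex, 9.7% for sex by genotype, and 0.303% and 4.24% for age by genotype in males and females.

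Loss of dFOXO, the insulin-regulated transcription factor, was compared next. edgeR called 0 of the 8 members averaged over sex and age, against 2.42% of all features and 2.4% of miRNAs, and 0 had an unadjusted p under 0.05, as 13.6% of all features had. DESeq2 and TMM scaling called 0 as well. miR-275-3p had the largest value, with 0.103%, 0.372% and 0.880% in wildtype (lowest, median, highest of 8) and 0.0934%, 0.195% and 0.430% in dFOXO-null flies, and a log2 fold change of -0.90 (SE 0.48, adjusted p = 0.439). dFOXO-null libraries were lower in 4 of 4 pairs of replicate 2 with a mean log2 ratio of -1.18, and in 2 of 4 pairs of replicate 1 with a mean of -0.09. miR-14-3p had -0.75 (SE 0.62) and miR-278-3p 0.49 (SE 0.36). miR-33-5p, miR-305-5p, bantam-3p, miR-375-3p and miR-8-3p had 0.22 (SE 0.28), 0.36 (SE 0.34), -0.16 (SE 0.23), -0.05 (SE 0.25) and 0.00 (SE 0.22). The standard errors were largest for miR-14-3p and miR-275-3p. Over the libraries left out 1 at a time these values moved by more than 1.5 times with no call: miR-14-3p ran from -1.49 (without replicate 2 of old dFOXO-null females) to -0.21 (without replicate 2 of young wildtype females), miR-275-3p from -1.11 (without replicate 2 of young dFOXO-null males) to -0.45 (without replicate 2 of young wildtype females), miR-278-3p from 0.25 (without replicate 2 of old dFOXO-null females) to 0.82 (without replicate 2 of old wildtype females) and miR-305-5p from 0.19 to 0.69 (without replicate 1 or replicate 2 of old wildtype females).

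miR-14-3p, miR-278-3p and miR-375-3p, the members linked to insulin secretion or response, were also compared between genotypes in each class, where edgeR called 0 of the 8 members in each, DESeq2 called 2 in old females and 0 in the other classes, and the members with an unadjusted p under 0.05 numbered 0 in each. Of all 330 features, DESeq2 called 20 in old females, and 4, 5 and 14 in young males, old males and young females. The edgeR background by adjusted p was 0.606% in young and 0% in old males, and 2.73% in young and 0% in old females. By unadjusted p it was 2.12% and 6.06% in young and old males, and 6.97% and 11.8% in young and old females. Among males, miR-14-3p had -1.14 (SE 1.26) when young and 0.36 (SE 1.24) when old, and among females -2.03 (SE 1.29) when young and -0.18 (SE 1.24) when old. In young females both dFOXO-null libraries, at 0.181% and 0.258%, bracketed the lower wildtype library at 0.201%, while the other wildtype library was at 1.59%. The fit of those 4 libraries alone called it (edgeR adjusted p = 0.0157), and the share of all features it called was not recorded. Without replicate 2 of young wildtype females the value of miR-14-3p in the joint fit was 0.12. miR-278-3p had -0.23 (SE 0.72), 0.10 (SE 0.72), 0.73 (SE 0.72) and 1.38 (SE 0.73) in the same order. In old females it was at 0.547% and 2.14% in wildtype and 1.79% and 5.20% in dFOXO-null flies, so the genotypes overlapped. edgeR gave an adjusted p of 0.449 there, and DESeq2 gave 1.70 with an adjusted p of 0.0214. miR-375-3p had 0.05, 0.29, -0.02 and -0.53, with SE of 0.51 in each.

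The length of the reads was compared as a further readout, since the choice of the miRNAs did not use it. The 21 nt share is the percent of the 19 to 25 nt reads of a miRNA that were 21 nt long. Its range over the 16 libraries was 75.9% to 92.6% for miR-33-5p, 64.6% to 77.8% for miR-375-3p, 22.9% to 40.8% for miR-278-3p, 10.2% to 48.8% for miR-275-3p, 9.88% to 15% for miR-8-3p, 4.76% to 11.4% for miR-14-3p, 3.47% to 17.7% for miR-305-5p and 2.20% to 8.37% for bantam-3p. With age, the share of miR-305-5p rose and was higher in the old library of 8 of 8 pairs. Its young libraries had 3.47%, 4.74% and 6.90% (lowest, median, highest) and its old libraries 4.73%, 9.19% and 17.7%. The 4 old libraries of replicate 2, with 11.2% and 17.7% in dFOXO-null females and males and 14.5% and 11% in wildtype females and males, lay above all others. The log2 odds changed by 0.98 (SE 0.30, limma adjusted p = 0.0479), and this was 1 of 8 members against 16.4% of the 134 miRNAs tested. The call was lost on leaving out any of 12 libraries, that is each young library and replicate 2 of old flies in each class, with 0.81 to 1.06 and adjusted p of 0.052 to 0.115. miR-33-5p had 0.62 (SE 0.26, limma adjusted p = 0.104), which passed with the replicate block (adjusted p = 0.0253).

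Between the sexes, limma called 0 members, with 1 at an unadjusted p under 0.05 and a background of 2.24%. That one was miR-275-3p, whose 21 nt share was 10.2%, 21.5% and 31.5% in males and 16.2%, 42.2% and 48.8% in females and was higher in the female library of 8 of 8 pairs. Its log2 odds differed by 1.24 (SE 0.36, adjusted p = 0.0871), and with the replicate block the adjusted p was 0.00873. Without replicate 2 of old wildtype females the difference was 1.51 (adjusted p = 0.0165). For dFOXO loss 0 members were called, 0 had an unadjusted p under 0.05 and the background was 0%. The replicates also differed in this share: miR-14-3p had a higher share in replicate 1 in 8 of 8 conditions, and miR-375-3p in replicate 2 in 8 of 8.

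The balance of the arms was compared in the same way, a readout chosen after the data had been seen. The kept arm held 98.7% to 99.6% of the reads of the bantam hairpin, 98.8% to 99.7% of mir-33, 98.9% to 99.8% of mir-375, 93.7% to 99.5% of mir-278, 92% to 98.2% of mir-275 and 87.6% to 98.5% of mir-8. The 3p share of mir-14 ran from 62.6% over 79.8% to 92.7% in young and from 68.4% over 95.6% to 98.9% in old libraries, and was higher in the old library of 7 of 8 pairs. The log2 odds of the 3p over the 5p arm rose by 2.28 (SE 0.65, limma adjusted p = 0.0362), the only call among 8 members against 12.7% of the 63 hairpins tested. It was lost on leaving out any of 11 libraries, with 1.79 to 2.47 and adjusted p of 0.0515 to 0.0992: all young libraries but replicate 2 of wildtype females, both of old wildtype males, and replicate 2 of old dFOXO-null males and females. miR-14-5p itself had a log2 fold change with age of 0.35 (SE 0.42, edgeR adjusted p = 0.512), and in old wildtype females it was at 0.0315% and 0.336%.

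mir-305 was the one hairpin of the 8 in which the more abundant arm changed between libraries. Its 5p share ran from 32.0% to 63.7% in males and from 24.1% to 88.7% in females, and was higher in the female library of 7 of 8 pairs. The exception was replicate 1 of old wildtype flies, with 24.1% in females and 32.0% in males. The log2 odds of the 3p over the 5p arm differed by -1.29 (SE 0.55) between females and males, which did not pass (limma adjusted p = 0.227), as no member did against a background of 4.76%. Without replicate 1 of old wildtype females it was -1.70 (adjusted p = 0.032). The 3p share of mir-8 was higher in the female library of 8 of 8 pairs, with 1.05 (SE 0.49, adjusted p = 0.237). For dFOXO loss the 3p share of the bantam hairpin was higher in 8 of 8 pairs, but it had an unadjusted p of 0.047 with a difference of 0.58 (SE 0.26, adjusted p = 0.592), and 0 of 63 hairpins were called (0%).

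**Figure D4:**
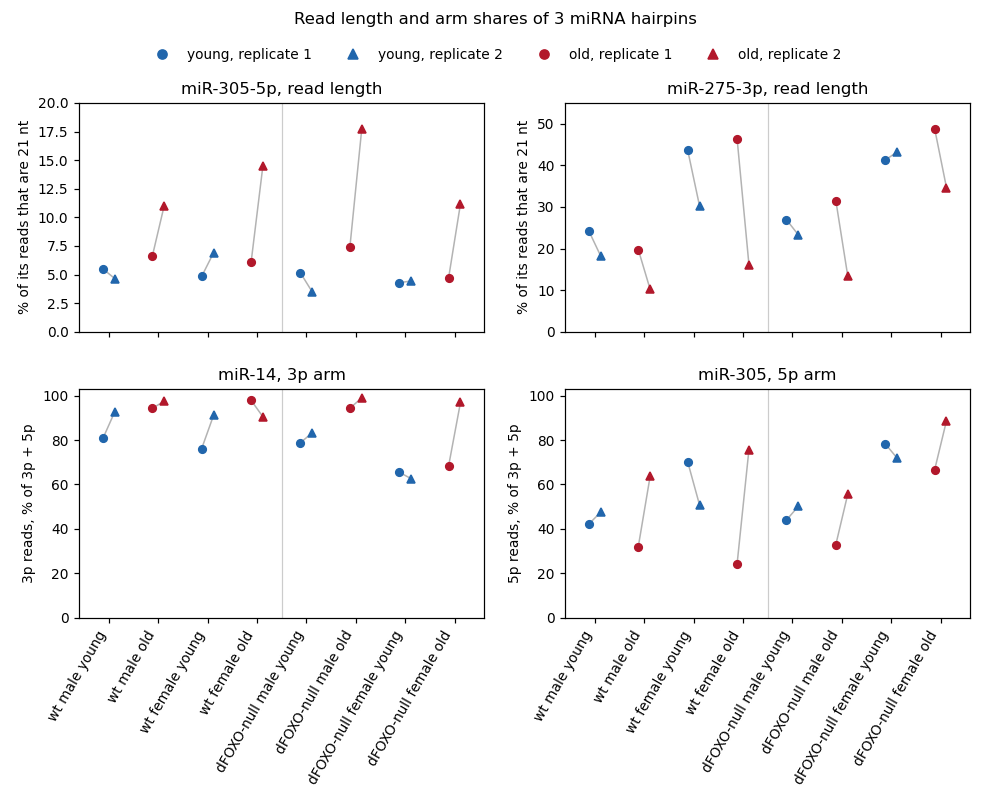
The 21 nt share of miR-305-5p and miR-275-3p (top) and the share of the 3p arm of mir-14 and of the 5p arm of mir-305 (bottom), in percent, in the 16 libraries. The axes start at 0 and the 2 replicates of a condition are joined by a line. The 21 nt share of miR-305-5p is highest in the 4 old libraries of replicate 2, and the 5p arm of mir-305 runs from 24.1% to 88.7%.

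The pattern over the 16 libraries was compared with the other 121 miRNAs of at least 100 reads on average, by Pearson correlation of the log2 percent of reads. This is a description, in which all points share the libraries and their depth, age and sex. miR-14-3p was most like miR-125-5p (r = 0.92) and miR-284-3p (r = 0.91), miR-33-5p like miR-996-3p (0.91) and miR-316-5p (0.88), and miR-278-3p like miR-124-3p (0.87) and miR-996-3p (0.86). miR-375-3p was most like miR-9a-5p (0.93) and let-7-5p (0.88), miR-275-3p like its own 5p arm (0.90) and miR-988-3p (0.84), and miR-8-3p like miR-304-5p (0.83) and miR-1006-3p (0.80). miR-iab-4-5p was the closest to both bantam-3p (0.81) and miR-305-5p (0.92), followed by miR-92a-5p (0.74) and miR-282-5p (0.89). Among the members, miR-278-3p ran with miR-33-5p (r = 0.84) and miR-14-3p with miR-275-3p (r = 0.82), whereas the clustered miR-275-3p and miR-305-5p had r = 0.08.

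The insulin and TOR pathway was looked up among the 2303 transcripts of the table of reads on the dm6 genome, which counts small RNA reads and not mRNA. Of 27 pathway genes 2 were listed, *Tsc1*, which encodes a brake on TOR, with 0 to 6 reads per library, and *sima*, a hypoxia-responsive transcription factor linked to insulin signalling, with 1 to 179. The gene *foxo* and the insulin-like peptides were not among them, nor were *SREBP* or the reported targets *hid*, *ush*, *sug*, *EcR* and *ex*, so the deletion could not be checked from these reads. *sima* had edgeR adjusted p of 0.753 for age, 0.748 for sex and 0.91 for genotype, against backgrounds of 19.5%, 49.7% and 9.83% of the 1566 transcripts tested.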

How the data were processed

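Total small RNA of 16 libraries, 2 for each of 8 conditions, was analysed. According to the study's methods, the authors trimmed reads with Trim Galore, kept reads of up to 25 nt or of exactly 21 nt, mapped them with Bowtie (1 mismatch, all valid alignments reported) to mature miRNAs, transposons and spike-ins or to dm6, and counted alignments with featureCounts, so a read that matches several entries is counted in each. The deposited counts are not normalized. The deposited percent tables are the authors' counts divided by all mapped reads, and the percents of the 8 miRNAs were recomputed from the counts to within 1e-06 of them.

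edgeR 4.0.16 (R 4.3.3) was fitted to the counts of the 330 features whose mean was 5 counts or more, using 1 coefficient per condition and library sizes of mapped reads less spike-ins. Contrasts were averaged over 4 classes, taken within a class, or between effects, and p-values were adjusted over all features. Shares were tested with limma 3.58.1 on log2 odds with 0.5 added, for features with at least 50 reads on average. Alternatives were TMM factors, spike-in or miRNA reads as library size, no filter, DESeq2 1.42.0, a replicate block, adjustment over miRNAs alone, fits of 4 libraries, other minimums and pseudocounts for shares, and leaving out each library. The arm shares and their alternatives were added after the data had been seen. The self-check on simulated data ran before the fits. Each of the 8 miRNAs is named. Effects within a class are given where the unadjusted p was under 0.05, and always for age and genotype of miR-14-3p, miR-278-3p and miR-375-3p. The members and lists were chosen with earlier results of these data known. No column belonged to samples outside the series (0 of them).

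Depth ran from 596871 to 15259153 mapped reads. Replicates are separate samples by the labels, and no pair of replicates agreed within sampling noise (chi-square per degree of freedom at least 406.7). Young and old flies of a genotype and replicate were brothers and sisters by the labels. Over 237 features, deviations of same-numbered libraries correlated with r of 0.158 to 0.338 (median 0.245) between ages. Between sexes r was 0.325 to 0.702 (median 0.576), and between genotypes 0.086 to 0.709 (median 0.564). Other pairs had -0.126 to 0.587 (median 0.206), so the ages were near these. The values do not single out age and sex for the replicate block. Intervals and errors cover spread between libraries only.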

Additional observations from a re-analysis of the deposited data

How the results depend on the processing

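The 654 comparisons of a result with an alternative setting cover effects, counts of called members and median percents. Of these, 536 were unchanged and 63 turned. For an effect, unchanged means the same direction and side of the threshold. For a count of called members it means an equal or similar number, and for a median percent a change below the SD between replicates. Leaving out 1 library left 695 of 848 effects and counts unchanged and turned 41. The cause was not tested.

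With TMM factors the called members were 1 for age and 6 for sex, and 5 in young wildtype, 2 in young dFOXO-null and 1 in old wildtype flies between the sexes. Of all 330 features, 28 were called for age and 284 for sex, and 235, 203 and 192 in those classes in the same order. Values that turned were, for age, bantam-3p -0.44, miR-305-5p -0.29, miR-278-3p -0.20 in wildtype males and -0.025 in dFOXO-null males and miR-375-3p -0.90 in dFOXO-null males. For sex they were bantam-3p -0.92, miR-278-3p -0.88, miR-33-5p -0.49, miR-275-3p -1.20 and miR-305-5p -0.18. For dFOXO loss they were bantam-3p 0.031, miR-8-3p 0.11, miR-375-3p 0.035 and, in young females, 0.16.

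With DESeq2 the called members were 7 for sex, 5, 4 and 6 in young wildtype, young dFOXO-null and old wildtype flies, and 2 for dFOXO loss in old females. Of all 330 features it called 294, then 236, 218 and 226, and 20 in the same order. Turned values were, for age, bantam-3p -0.55, miR-305-5p -0.40, miR-278-3p -0.12 in wildtype males and -0.032 in wildtype females and miR-375-3p -0.60 in dFOXO-null males. For sex they were bantam-3p -1.02, miR-278-3p -1.03, miR-33-5p -0.60, miR-275-3p -1.36 and miR-305-5p -0.32, and for dFOXO loss bantam-3p 0.030, miR-8-3p 0.10, miR-375-3p 0.0093 and, in young females, 0.065.

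Spike-in reads, 91 to 1970 per library and with a median of 174 in young and 848 in old libraries, gave 7 called members for age, 1 for sex and 0 between the sexes of old dFOXO-null flies. They equalled 0.00175% to 0.150% of mapped reads, so this scaling rests on few reads. Of the 8 spike-ins, 5 are named as longer than 25 nt, and these held 32.1% to 95.7% of spike-in reads. How they passed the filter for reads of up to 25 nt is not stated. The age effects became -2.87 for bantam-3p, -0.39 for miR-14-3p, -2.42 for miR-278-3p, -1.80 for miR-33-5p, -1.98 for miR-275-3p and -2.93 for miR-305-5p. By class (wildtype males, wildtype females, dFOXO-null males, dFOXO-null females) miR-14-3p had -0.48, -0.71, -0.16 and -0.23 and miR-278-3p -3.01, -2.92, -2.85 and -0.88, miR-375-3p had -3.33 in dFOXO-null males and miR-33-5p -0.69 in dFOXO-null females. For sex miR-8-3p had 0.37 and miR-375-3p 0.31, in old dFOXO-null flies 1.14 and 1.11, and age by sex of miR-8-3p was 0.18. For dFOXO loss bantam-3p had 0.22, miR-8-3p 0.25 and miR-375-3p 0.14, with -0.15, -0.018, 0.20 and 0.51 in young males, old males, young females and old females, and in old males miR-14-3p had -0.086 and miR-278-3p -0.093.

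With the replicate block the called members were 5 for sex and 5 between the sexes of old dFOXO-null flies, and for the 21 nt share 2 for age and 1 for sex. miR-275-3p then had -0.031 for sex, or -0.093 with the block within genotype, miR-375-3p -0.0039 or -0.0017 for age in dFOXO-null males, miR-8-3p 0.12 for dFOXO loss with the latter, and the block changed no other call than those given. Adjustment over miRNAs alone left 0 calls between the sexes of old dFOXO-null flies, and so did fits of only the 4 libraries compared, which called 1 member for age in dFOXO-null males, 1 in dFOXO-null females, 1 for sex in young dFOXO-null flies and 1 for dFOXO loss in young females. The share of all features called was not recorded for the fits of 4 libraries.

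Over the libraries left out, the called members ran from 0 to 3 for age, 0 to 1 for age in dFOXO-null males, 0 to 1 for sex in old wildtype and old dFOXO-null flies, and 0 to 1 for age and sex in the 21 nt and arm shares. Ranges that crossed 0 were, for age, -0.13 to 0.26 for bantam-3p, -0.024 to 0.54 for miR-305-5p, -0.46 to 1.51 and -0.29 to 1.28 for miR-278-3p in wildtype females and males, and -0.88 to 0.30 and -0.18 to 0.24 for miR-375-3p in wildtype females and dFOXO-null males. For sex it was -0.43 to 0.37 for miR-275-3p. For dFOXO loss they were -0.31 to 0.080 for bantam-3p, -0.15 to 0.10 for miR-8-3p, -0.17 to 0.13 for miR-375-3p, and by class -0.17 to 0.25, -0.50 to 0.34 and -1.01 to 0.18 for miR-375-3p in young males, young females and old females, -2.08 to 0.62, -1.66 to 1.62, -2.85 to 0.12 and -3.14 to 0.72 for miR-14-3p in young males, old males, young females and old females, and -0.74 to 1.09 for miR-278-3p in old males.

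Over all 330 features the calls for age were 35, of which 26 were higher, with 28 and 12 for TMM, 59 and 17 for DESeq2, 284 and 0 for spike-in reads and 62 and 46 with the block. For sex they were 209 and 159, with 284 and 141 for TMM, 294 and 141 for DESeq2 and 168 and 155 for spike-in reads. For dFOXO loss they were 8 and 3, with 12 and 8 for TMM, 25 and 15 for DESeq2 and 2 and 0 for spike-in reads. The median of all features for age was 0.05 with TMM, -0.07 with DESeq2 and -2.34 with spike-in reads.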
